A study of Homo sapiens with 6 samples.

Results

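The genes described are the receptors for insulin and insulin-like growth factors (INSR and IGF1R), the insulin receptor substrates IRS1 and IRS2, and the 6 IGF-binding proteins IGFBP1 to IGFBP6. They were taken by gene symbol from the count table, where all 10 were found among 31831 listed genes. Poly(A) RNA-seq was performed on 6 libraries of HK-2, an immortalized line derived from human proximal tubular epithelium. The 3 HG-NC libraries came from cells that carried the empty vector, and the 3 HG-OE libraries from cells that overexpressed hnRNP-F, an RNA-binding protein of the heterogeneous nuclear ribonucleoprotein family. Both groups were kept in 30 mM glucose for 72 h, so the comparison is between constructs within high glucose and not between glucose levels. The control is described as a plasmid in the sample labels and as a lentivirus in the study's methods. The study calls its replicates biological and describes parallel wells, and the labels do not tie libraries to separate cultures, so the p-values measure the spread between these libraries.

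Insulin binds INSR, and IGF1 and IGF2 bind IGF1R. Both receptors are tyrosine kinases that phosphorylate the IRS proteins, which recruit PI3-kinase and pass the signal on to AKT, and AKT in turn keeps the FOXO transcription factors out of the nucleus. The IGFBPs are secreted proteins that hold IGFs outside the cell, lengthen their life or limit their access to IGF1R, and proteases such as PAPP-A release the IGFs again. In the kidney, the proximal tubule is a site of insulin action and of IGF uptake, and this axis is studied in diabetic kidney disease. Only transcripts were measured here, not secreted protein or receptor activity.

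HNRNPF itself was higher in every library labelled as overexpressing. Its counts were 7733, 8623 and 8692 in HG-NC and 12492, 13155 and 12397 in HG-OE, or 311 ± 7.23 and 435 ± 14.9 CPM (counts scaled to library size with TMM factors, mean ± SD, n = 3). The log2 fold change (HG-OE over HG-NC throughout) was 0.48 with a standard error (SE) of 0.0388, a 1.4-fold rise (edgeR quasi-likelihood test, adjusted p = 2.80e-07). The libraries held 25507595 to 29444841 counts. Of the markers of the labelled cell type, PAX8 had 11953 to 18291 counts and DPP4 1217 to 2558, while the endocytic receptor LRP2 had 0 counts in 5 libraries and 17 in HG-OE replicate 3, and AQP1 had 0 to 7.

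HG-OE replicate 3 stood apart from the other libraries. The liver transcripts ALB, APOB and AFP had 4359, 1583 and 1866 counts in it, against 0 to 78, 0 to 53 and 33 to 49 in the other 5 libraries. Of 16 hepatocyte markers, 14 were highest in this library. Without SERPINA1, which was abundant in every library, their summed level was 491 CPM there, 15.6 CPM in HG-NC replicate 3 and 3.69 to 6.65 CPM in the remaining 4. Keratin KRT5, a basal epithelial marker, had 334 counts in HG-OE replicate 3 and 0 in the others. The part of these transcripts in the results was not tested, and the change of each tested receptor, IRS and IGFBP gene is therefore also given without this library. For other genes this value is given where it moved by over 1.5 times or ended the call.

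The sequences just before the start sites are shown first for IGFBP4 and IGFBP5, the pair that changed most. IRS2, whose regulation by insulin is well known, is shown as well. IGFBP3 and INSR changed more than IRS2 (log2 fold change -0.88 and 0.73, against -0.71) and are not shown. Of the 10 genes, 9 matched an entry in the RefSeq promoter table (GRCh38.p14), and IGFBP1 did not. The 250 bases before each start were searched on both strands for 5 short motifs, none of which was read as a proven site. IGFBP4 (chr17:40443330-40443449, plus strand) held the TATA box TATAAA at 29 to 24 bases before its start, and IGFBP5 (chr2:216695550-216695669, minus strand) held the variant TATTTAA at 31 to 25 bases. These letters occurred in 10.7% and 4.17% of 35116 promoter windows, and in none of the other matched genes. Only these exact letters were searched. The similar letters TATATA, which were not among the motifs, stand before the start of IGFBP3, so TATA-like sequences are not particular to this pair. The third sequence is IRS2 (chr13:109786584-109786703, minus strand), which carried CAAAACA, the core of the insulin response element that FOXO proteins recognize, on the opposite strand at 40 to 34 bases before the start, where it reads TGTTTTG. This core occurred in 4.3% of windows. Each line gives the 120 bases before the start, 5′ to 3′, with the motif in capitals.
IGFBP4: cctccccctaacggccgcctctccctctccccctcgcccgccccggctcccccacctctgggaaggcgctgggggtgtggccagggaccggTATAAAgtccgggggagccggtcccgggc
IGFBP5: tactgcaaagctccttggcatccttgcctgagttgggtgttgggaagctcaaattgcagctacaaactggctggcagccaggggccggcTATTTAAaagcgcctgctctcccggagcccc
IRS2: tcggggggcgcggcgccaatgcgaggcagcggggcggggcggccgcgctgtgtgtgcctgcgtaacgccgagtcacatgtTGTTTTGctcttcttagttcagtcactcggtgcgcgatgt

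The forkhead core GTAAACA, present in 2.98% of windows, was found before IGFBP6 at 186 to 180 bases. The GC box GGGCGG, present in 42.6% of windows, was found before INSR, IGF1R, IRS1, IRS2, IGFBP2, IGFBP3, IGFBP4 and IGFBP6.

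Of the 10 genes, 8 had enough counts to be tested, and IGFBP1 and IGFBP2 did not. All 8 tested genes changed at an adjusted p under 0.05, where 51.8% of the 17142 genes tested did so, and 61.9% of those that averaged 100 counts or more. A call at this threshold was therefore common in these data, and the size of each change says more. INSR, IGF1R, IGFBP4 and IGFBP6 were higher in HG-OE (4 of 8, against 25.9% of all genes tested), and IRS1, IRS2, IGFBP3 and IGFBP5 were lower (4 of 8, against 25.9%). Only IGFBP4 and IGFBP5 also passed a 2-fold change (2 of 8, against 5.82%). The values of the groups did not overlap for any of the 8, as for 59% of all genes tested. For a single gene, the exact two-sided permutation test of 3 against 3 libraries cannot go below p = 0.1, which each of the 8 reached. Over all genes tested, the log2 fold change had a median of 0.011.

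**Figure D1:**
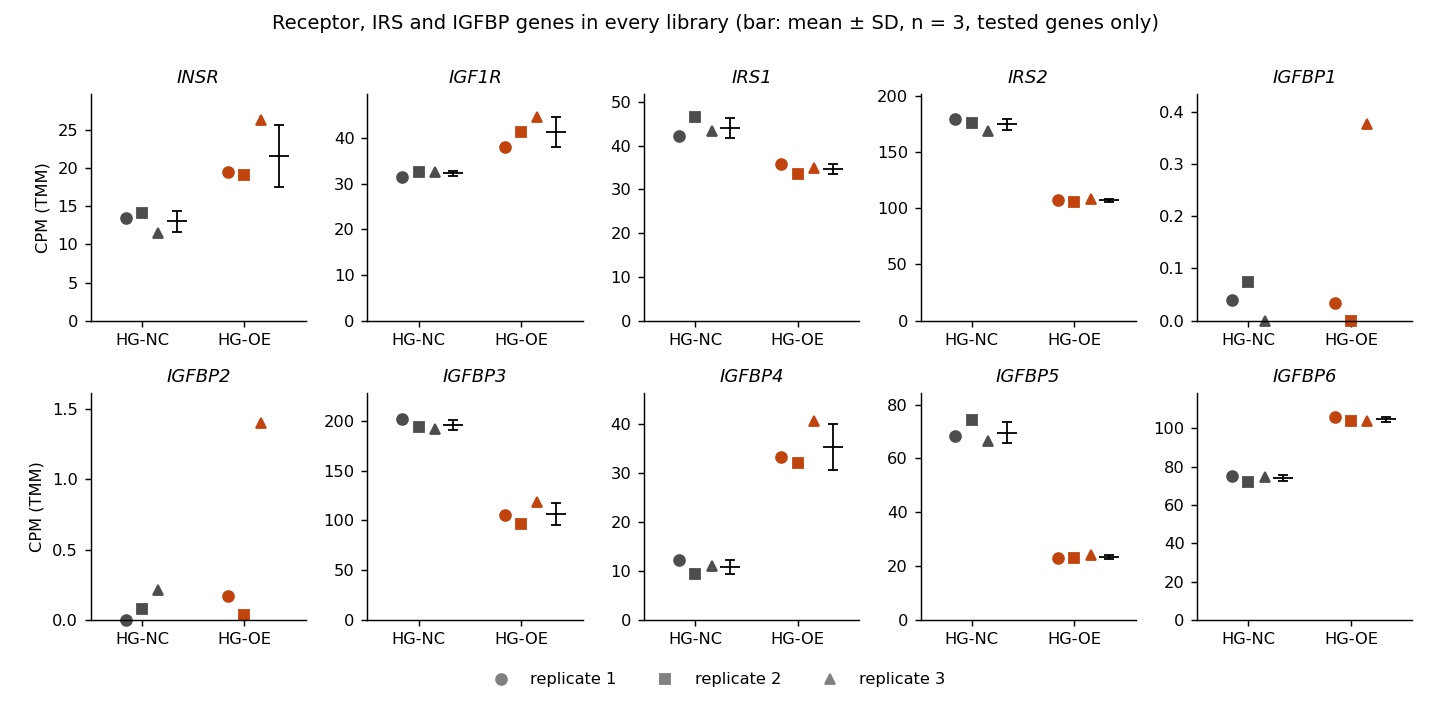
CPM of the 10 genes in every library, on linear axes from 0 that differ between panels. Points are libraries, the shape gives the replicate number, and the bars beside the points of the 8 tested genes are the mean ± SD of 3 libraries. The groups are apart for these 8, while IGFBP1 and IGFBP2 lie near 0 except in HG-OE replicate 3.

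Both receptors rose. INSR, the insulin receptor (GRCh38, chr19:7112255-7294414, minus strand), had 13.5, 14.1 and 11.5 CPM in the 3 HG-NC libraries and 19.5, 19.1 and 26.3 in the 3 HG-OE libraries. Every HG-OE library was above every HG-NC library, and HG-OE replicate 3 was the highest. The means were 13.0 ± 1.35 and 21.6 ± 4.06 CPM, a 1.66-fold rise (log2 fold change 0.73, SE 0.12, 95% interval 0.47 to 0.99, adjusted p = 1.78e-04). Without HG-OE replicate 3 the log2 fold change was 0.57. Bulk RNA cannot tell a change in the number of cells that express a gene from a change in RNA per cell, here or below.

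IGF1R, the type 1 IGF receptor (chr15:98648539-98964530, plus strand), had 31.5, 32.6 and 32.6 CPM in the 3 HG-NC libraries and 38.0, 41.2 and 44.5 in the 3 HG-OE libraries. The control libraries lay within a narrow range, and all HG-OE libraries were above it. The rise was 1.28-fold (log2 fold change 0.35, SE 0.0618, 95% interval 0.22 to 0.49, adjusted p = 2.92e-04), and the log2 fold change was 0.30 without HG-OE replicate 3. On the FPKM scale, which divides by transcript length and allows genes to be compared, IGF1R was the more abundant receptor transcript in both groups. The FPKM ratio of IGF1R to INSR was 1.94 ± 0.22 in HG-NC and 1.5 ± 0.186 in HG-OE, with no overlap (1.80 to 2.19 against 1.31 to 1.68).

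Both IRS genes fell. IRS2 (chr13:109752695-109786583, minus strand), an adaptor that is prominent in hepatic insulin signalling and whose transcription insulin is known to repress through FOXO, had 179, 176 and 169 CPM in the 3 HG-NC libraries and 107, 106 and 108 in the 3 HG-OE libraries. The 3 HG-OE libraries were nearly equal and all far below the controls. The means were 174 ± 5.11 and 107 ± 0.84 CPM, 1.63-fold lower in HG-OE (log2 fold change -0.71, SE 0.0391, 95% interval -0.79 to -0.62, adjusted p = 1.03e-08). The log2 fold change was again -0.71 without HG-OE replicate 3.

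IRS1 (chr2:226731312-226799820, minus strand), the adaptor first identified as an insulin receptor substrate, had 42.2, 46.5 and 43.3 CPM in the 3 HG-NC libraries and 35.9, 33.6 and 34.8 in the 3 HG-OE libraries. The groups were apart, by a smaller margin than for IRS2. It was 1.27-fold lower (log2 fold change -0.34, SE 0.0559, 95% interval -0.46 to -0.22, adjusted p = 1.80e-04). The 112 genes within 10 Mb of IRS1 had a median log2 fold change of -0.12, with 40 lower and 17 higher, and the value for IRS1 relative to this median was -0.22. Leaving out HG-OE replicate 3 gave -0.34 again. IRS2 was the more abundant in FPKM, with a ratio of IRS2 to IRS1 of 4.88 ± 0.295 in HG-NC and 3.77 ± 0.111 in HG-OE.

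**Figure D2:**
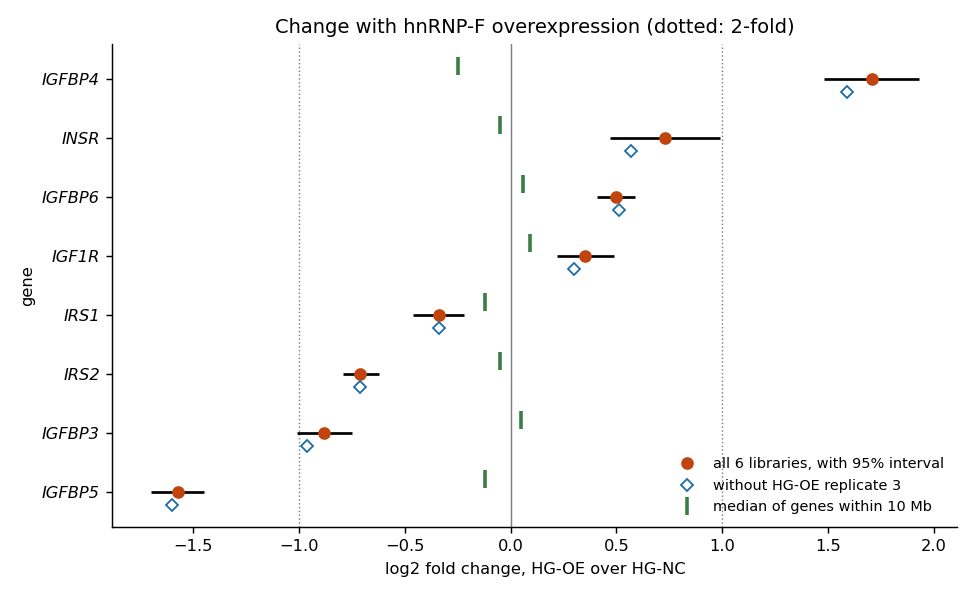
Log2 fold change (HG-OE over HG-NC) of the 8 tested genes, with 95% intervals from edgeR as lines, the value without HG-OE replicate 3 as diamonds, and the median of genes within 10 Mb as ticks. IGFBP4 at 1.71 and IGFBP5 at -1.57 lie beyond the dotted 2-fold lines, and no neighbourhood median is farther from 0 than the -0.25 around IGFBP4.

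The IGF-binding proteins held both the largest rise and the largest fall among the 10 genes. IGFBP4 (chr17:40443450-40457725, plus strand), which in most settings restrains IGF action and is the classic substrate of PAPP-A, had 12.2, 9.42 and 10.9 CPM in the 3 HG-NC libraries and 33.3, 32.0 and 40.6 in the 3 HG-OE libraries. The lowest HG-OE library was well above the highest control, and HG-OE replicate 3 was the highest. The means of 10.8 ± 1.39 and 35.3 ± 4.61 CPM gave a 3.26-fold rise (log2 fold change 1.71, SE 0.104, 95% interval 1.48 to 1.93, adjusted p = 2.48e-08). It was 1.59 on the log2 scale without HG-OE replicate 3. The genes around IGFBP4 went the other way: of 345 within 10 Mb, 167 were lower and 22 higher, with a median log2 fold change of -0.25, so that relative to them IGFBP4 was at 1.95.

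IGFBP5 (chr2:216672105-216695549, minus strand), which binds to extracellular matrix as well as to IGFs, had 68.4, 74.1 and 66.3 CPM in the 3 HG-NC libraries and 22.8, 23.1 and 24.1 in the 3 HG-OE libraries. All HG-OE libraries lay within a narrow range far below the controls. The means were 69.6 ± 4.05 and 23.3 ± 0.651 CPM, 2.98-fold lower (log2 fold change -1.57, SE 0.0573, 95% interval -1.70 to -1.45, adjusted p = 3.07e-10). Without HG-OE replicate 3 the log2 fold change was -1.60, and relative to the 100 genes within 10 Mb it was -1.46. IGFBP5 and IRS1 are both on the long arm of chromosome 2.

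IGFBP3 (chr7:45912245-45921874, minus strand), the main IGF carrier of serum, had 202, 194 and 192 CPM in the 3 HG-NC libraries and 105, 96.5 and 118 in the 3 HG-OE libraries. The groups were wide apart, and HG-OE replicate 3 was the HG-OE library nearest to the controls. It was 1.84-fold lower (log2 fold change -0.88, SE 0.0593, adjusted p = 6.18e-08), with a 95% interval of -1.01 to -0.75 that just reached a 2-fold fall. Leaving out HG-OE replicate 3 gave -0.96.

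IGFBP6 (chr12:53097436-53102345, plus strand), which binds IGF2 in preference to IGF1, had 75.3, 72.2 and 74.8 CPM in the 3 HG-NC libraries and 106, 104 and 104 in the 3 HG-OE libraries. Both groups were tight and clearly apart. The rise was 1.41-fold (log2 fold change 0.50, SE 0.0405, 95% interval 0.41 to 0.59, adjusted p = 3.10e-07), and the log2 fold change without HG-OE replicate 3 was 0.51.

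IGFBP1 and IGFBP2 were barely detected. IGFBP1 (chr7:45888360-45893660, plus strand), a liver protein that insulin suppresses through FOXO, had 1, 2 and 0 counts in HG-NC and 1, 0 and 11 in HG-OE. IGFBP2 (chr2:216632828-216664436, plus strand), the IGFBP that is abundant in cerebrospinal fluid and made by the liver, had 0, 2 and 6 counts in HG-NC and 5, 1 and 41 in HG-OE. HG-OE replicate 3 therefore held 91.7% and 87.2% of the HG-OE counts of these genes, and it is the library with the liver transcripts described above. A floor of 3 counts corresponds to 0.102 to 0.118 CPM per library, and IGFBP1 was under it in the other 5. With no filter on low counts, edgeR gave IGFBP2 a log2 fold change of 2.37 (adjusted p = 0.043) and IGFBP1 1.74 (adjusted p = 0.362). DESeq2 gave 2.46 for IGFBP2 (adjusted p = 0.0782) and 1.86 for IGFBP1 with no adjusted p. No difference between the groups was thus measurable for these genes outside a single library.

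**Figure D3:**
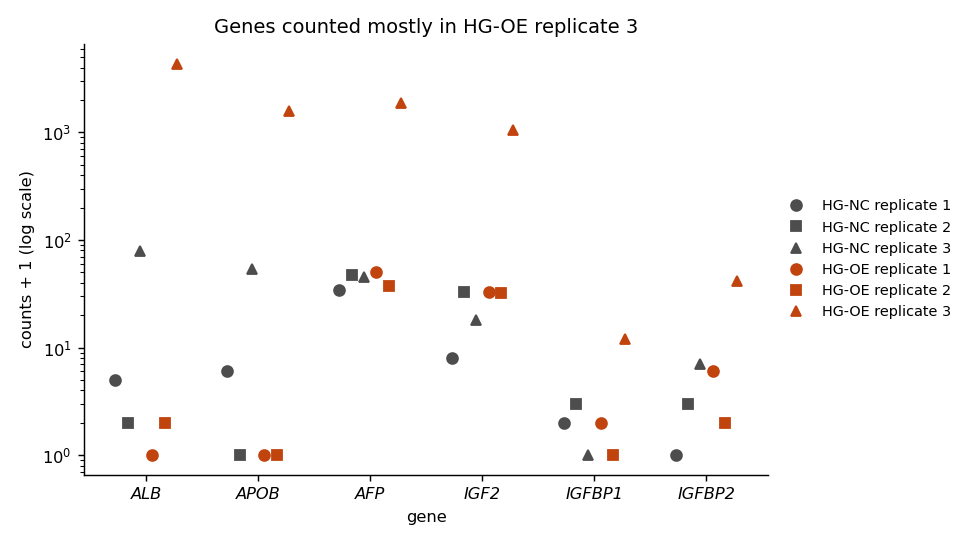
Counts per library, plotted as counts + 1 on a log axis, for the liver transcripts ALB, APOB and AFP, the ligand IGF2, and IGFBP1 and IGFBP2. Triangles in the HG-OE colour are HG-OE replicate 3, which is highest for all 6 genes, with 4359 counts of ALB, 1045 of IGF2, 11 of IGFBP1 and 41 of IGFBP2.

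Several of these genes lie close together, and neighbours did not share a level. IGFBP1 and IGFBP3 are 18.6 kb apart on chromosome 7, and IGFBP2 and IGFBP5 are 7.67 kb apart on chromosome 2, in each pair on opposite strands. In both pairs one gene had at least 662 counts in every library, and the other at most 41. Annotated genes that overlap IGF1R, IRS2 or IGFBP5 and were listed in the table had at most 3 counts in any library.

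Although single IGFBP genes moved in opposite directions, their summed level changed little. The FPKM of IGFBP1 to IGFBP6 summed to 104, 99.9 and 101 in HG-NC and to 107, 103 and 111 in HG-OE, or 102 ± 2.12 and 107 ± 4.0, with overlapping ranges. The composition shifted instead. IGFBP6 made up 48.4 ± 0.757% of the sum in HG-NC and 64.4 ± 2.65% in HG-OE, and IGFBP3 37.7 ± 0.473% and 19.3 ± 1.26%. The share of IGFBP4 was 4.32 ± 0.469% in HG-NC and 13.2 ± 1.27% in HG-OE, and that of IGFBP5 9.45 ± 0.647% and 2.98 ± 0.0777%. None of these 4 shares overlapped between the groups. As the sum changed little, this restates the separation of the 4 genes themselves, and 59% of all genes tested did not overlap either. The FPKM ratio of IGFBP4 to IGFBP5 went from 0.460 ± 0.0777 to 4.43 ± 0.462, so that the scarcer of the pair became the more abundant. The ratio of IGFBP3 to IGFBP6 was 0.780 ± 0.0205 in HG-NC and 0.300 ± 0.0318 in HG-OE.

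**Figure D4:**
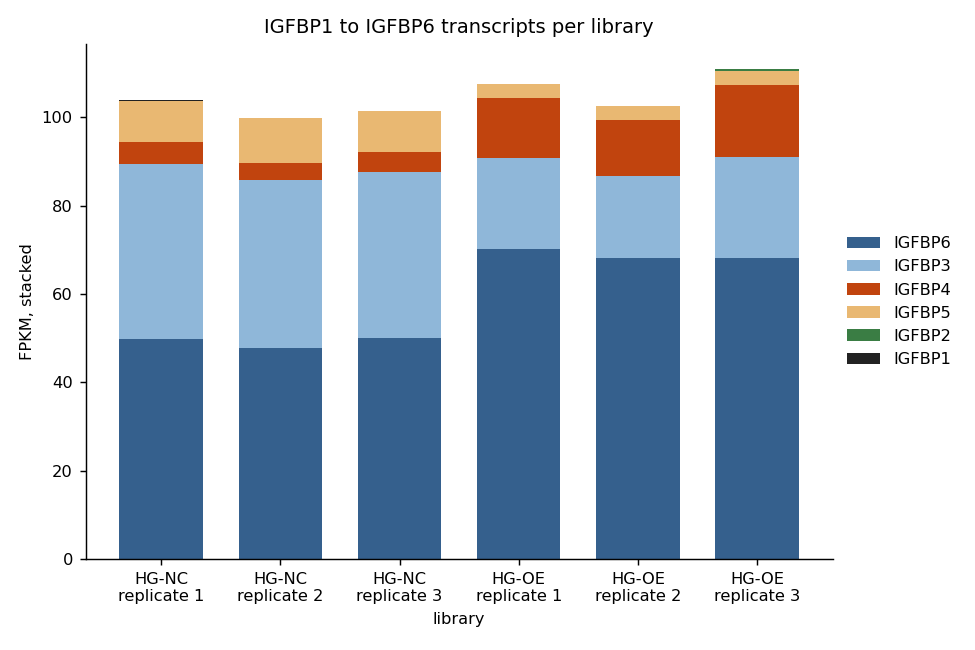
FPKM of IGFBP1 to IGFBP6 stacked for each of the 6 libraries, with bars from 0. The total stays between 99.9 and 111 while the IGFBP6 and IGFBP4 segments are larger and the IGFBP3 and IGFBP5 segments smaller in every HG-OE library.

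The order of the 10 genes by mean FPKM in HG-NC was IGFBP6 (49.3), IGFBP3 (38.4), IRS2 (19.1), IGFBP5 (9.62), IGFBP4 (4.40), IRS1 (3.93), IGF1R (2.07) and INSR (1.08), then IGFBP1 and IGFBP2 near 0. The libraries' ranges overlapped for IGFBP4 and IRS1, and for IGFBP1 and IGFBP2, while the other neighbours in the order were apart. In HG-OE the order was IGFBP6 (68.9), IGFBP3 (20.6), IGFBP4 (14.2), IRS2 (11.6), IGFBP5 (3.19), IRS1 (3.07), IGF1R (2.62) and INSR (1.77). There IGFBP5 and IRS1 overlapped, and IGFBP4 had moved above IRS2 and IGFBP5.

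The genes whose profile over the 6 libraries was most like that of IGFBP4 and of IGFBP5 were sought among 12365 genes averaging 100 counts or more, by the root mean square difference of log2 CPM after centring each gene. For IGFBP4 they were HSPA8, a constitutive heat shock protein (0.126, log2 fold change 1.58), S100A2, a calcium-binding protein (0.144, log2 fold change 1.51), and WNT5A, a noncanonical WNT ligand (0.155, log2 fold change 1.51). For IGFBP5 they were EPB41L3, a membrane skeleton protein (0.0561, log2 fold change -1.64), ELL2, a transcription elongation factor (0.0622, log2 fold change -1.58), and KCNAB2, a potassium channel subunit (0.0651, log2 fold change -1.49). With 6 libraries in 2 groups, this likeness rests mostly on the size of the group difference.

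Other genes of the insulin and IGF pathway were read from a list of 67, of which 59 could be tested. Of these, 14 rose, 21 fell and 24 did not pass, so that 59.3% were called, near the 51.8% of all genes tested, and their median log2 fold change was -0.05. No entry for INS or IGF1 was found among the listed genes, so these ligands were not analysed here. For the ligand IGF2, the counts were 7, 32 and 17 in HG-NC and 32, 31 and 1045 in HG-OE. Its fitted log2 fold change of 4.18 (adjusted p = 0.00825) rested on HG-OE replicate 3 and was 0.64 without it (adjusted p = 0.146). The remaining ligand-type genes tested were the IGFBP relatives IGFBP7, which rose (212 ± 3.92 to 377 ± 16.4 CPM, log2 fold change 0.83, adjusted p = 3.91e-09), and IGFBPL1, which fell (17.6 ± 1.42 to 10.7 ± 0.499 CPM, log2 fold change -0.72, adjusted p = 1.22e-05). INSL4 and IGFALS, which encodes the acid-labile subunit of the serum IGF complex, had 0 to 4 counts per library.

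The receptor IGF2R, which carries IGF2 to lysosomes, was at 186 ± 2.98 CPM in HG-NC, against 177 ± 5.28 in HG-OE, and did not pass (log2 fold change -0.07, 95% interval -0.16 to 0.01, adjusted p = 0.125). The 71 genes within 10 Mb of it had a median of -0.32, and relative to that median its value was 0.25. The orphan receptor INSRR had at most 3 counts. Of 8 adaptors tested, 3 rose and 2 fell (62.5% called, against 51.8% of all genes tested). DOK4 (log2 fold change 0.41, adjusted p = 1.96e-05) and SH2B2 (0.42, adjusted p = 0.00117) rose, and GRB2, which links receptors to RAS, fell (-0.26, adjusted p = 2.24e-04). Relative to the median of genes within 10 Mb, GRB2 was at -0.12.

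Of 10 genes listed as inhibitors of the receptor or of IRS proteins, 3 rose and 5 fell. That is 80% called, against 51.8% of all genes tested and 61.9% of those that averaged 100 counts or more. With so few genes in a role, the count was not tested. SOCS3, a cytokine-induced inhibitor that targets IRS proteins for degradation, fell (35.4 ± 0.911 to 23.5 ± 1.84 CPM, log2 fold change -0.59, adjusted p = 5.15e-06). TRIB3, a stress-induced pseudokinase, was listed in this role although it binds AKT and not the receptor or IRS proteins. It fell as well (361 ± 7.06 to 230 ± 16.7 CPM, log2 fold change -0.65, adjusted p = 1.51e-07), and was at -0.43 relative to its neighbourhood median. CISH, of the SOCS family, rose from a low level, with 55, 37 and 59 counts in HG-NC and 164, 161 and 84 in HG-OE (log2 fold change 1.32, adjusted p = 6.99e-04). Genes within 10 Mb of CISH had a median of 0.54, and relative to it CISH was at 0.78. The receptor phosphatase PTPRF rose (log2 fold change 0.57, adjusted p = 7.41e-08), while PTPN1, the phosphatase known for dephosphorylating INSR, had 127 and 126 CPM (adjusted p = 0.803).

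Among IGFBP proteases and their inhibitors, 5 were tested, of which 2 rose and 1 fell (60% called, against 51.8% of all genes tested). PAPPA, the protease that cleaves IGFBP4, fell (40.2 ± 1.35 to 28.1 ± 2.02 CPM, log2 fold change -0.52, adjusted p = 1.07e-05), in the opposite direction to its substrate. Its inhibitor STC2 rose (log2 fold change 0.39, adjusted p = 4.20e-06), as did the serine protease HTRA1 (0.36, adjusted p = 7.50e-05). STC2 lies among genes with a median log2 fold change of 0.47, and relative to them it was at -0.08, the opposite direction.

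Of 13 genes of PI3-kinase and AKT, 2 rose and 4 fell (46.2% called, against 51.8% of all genes tested). The catalytic subunit PIK3CA (log2 fold change -0.51, adjusted p = 8.47e-06) and the regulatory subunit PIK3R1 (-0.52, adjusted p = 4.26e-06) fell by similar amounts. AKT1 rose (0.28, adjusted p = 9.70e-05), and AKT2 had 74.4 CPM in both groups (adjusted p = 0.995). Relative to the genes within 10 Mb, AKT1 was at 0.09. Of 16 genes downstream of AKT, 2 rose and 7 fell (56.2% called, against the same 51.8%). RPS6KB1, which encodes the S6 kinase that feeds back on IRS1, fell (30.3 ± 1.67 to 17.8 ± 0.697 CPM, log2 fold change -0.77, adjusted p = 5.26e-07), and the transcription factor FOXO3 fell (78.3 ± 2.27 to 49.7 ± 2.17 CPM, log2 fold change -0.65, adjusted p = 1.45e-07). Genes within 10 Mb of FOXO3 had a median of -0.29, and relative to it FOXO3 was at -0.36. Around RPS6KB1 the median was -0.25, and relative to it RPS6KB1 was at -0.52. FOXO1, with under 1 CPM on average in each group, did not pass (0.74, adjusted p = 0.0664). Of the 3 mRNA-binding proteins named for IGF2, IGF2BP2 fell (-0.36, adjusted p = 8.84e-06) and the others did not pass.

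**Figure D5:**
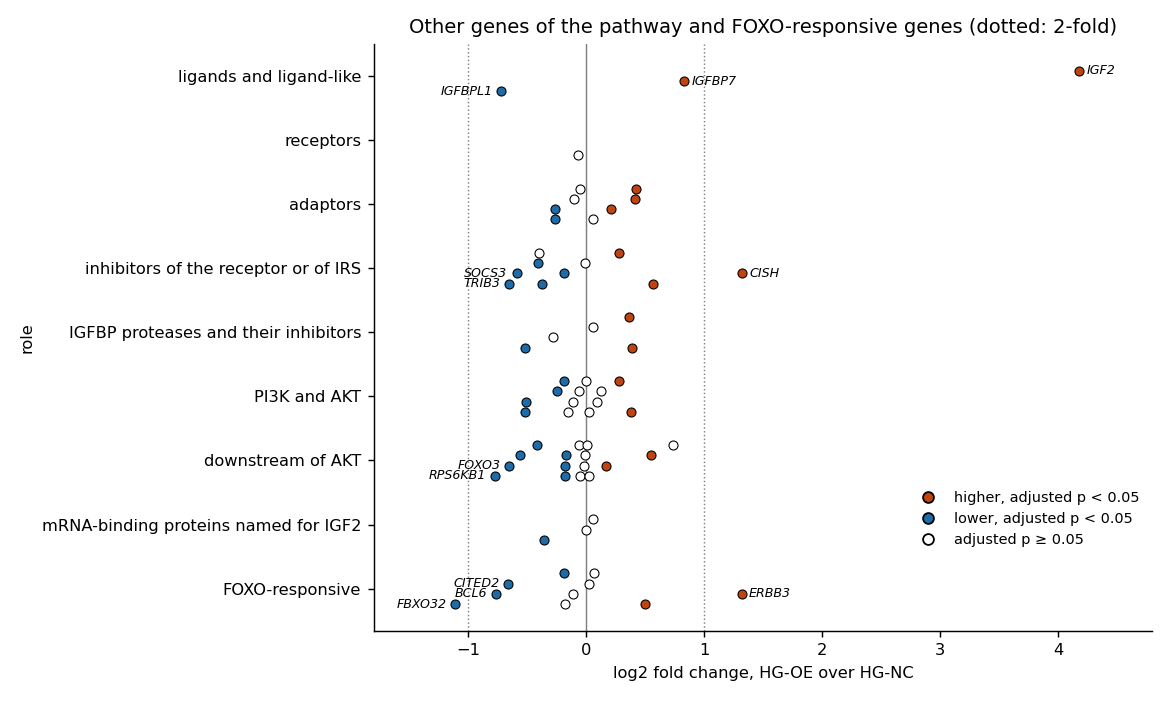
Log2 fold change (HG-OE over HG-NC) of the 69 tested genes of the pathway and FOXO lists, 1 point per gene, arranged by role, with the 12 genes of largest change named. Filled points have an adjusted p under 0.05 by edgeR, and most of them lie between the dotted 2-fold lines, with IGF2 at 4.18 resting on HG-OE replicate 3.

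Genes known to respond to FOXO proteins, as IRS2, INSR and IGFBP1 also do in other settings, formed a list of 15, of which 10 were tested, 2 rose, 4 fell and 4 did not pass (median log2 fold change -0.14). The 6 called were 60% of those tested, near the 51.8% of all genes. FBXO32, a ubiquitin ligase of muscle atrophy, fell most (225 ± 2.06 to 104 ± 6.72 CPM, log2 fold change -1.11, adjusted p = 9.32e-10). The transcriptional regulators BCL6 (-0.76, adjusted p = 2.94e-07) and CITED2 (-0.66, adjusted p = 5.97e-08) and the cell cycle inhibitor CDKN1B (-0.19, adjusted p = 0.00429) also fell. Of the 80 genes within 10 Mb of CITED2, 48 were lower and 5 higher, and CITED2 was at -0.31 relative to their median of -0.35. CAT, which encodes catalase, rose (0.50, adjusted p = 0.00612), with 248, 250 and 247 counts in HG-NC and 336, 329 and 479 in HG-OE, and was at 0.30 without HG-OE replicate 3 (adjusted p = 0.0105). The receptor ERBB3 rose (log2 fold change 1.32, adjusted p = 0.00207), with 143, 126 and 107 counts in HG-NC and 230, 224 and 572 in HG-OE, and it was at 0.74 on the log2 scale without HG-OE replicate 3. The list thus held genes moving in both directions, as the 8 tested genes described above did, and PCK1 and G6PC1, the gluconeogenic genes, were too low to test.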

How the data were processed

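Poly(A) RNA-seq of 6 libraries was analysed from 2 deposited tables, which hold whole-number read counts and FPKM per gene. Per the study's methods, the authors trimmed reads with the FASTX-Toolkit, aligned them to GRCh38 with HISAT2 and kept uniquely mapped reads from strand-specific (dUTP) libraries. ComBat_seq is named there, and whether it touched these values is not stated, so the counts were used as deposited. The counting tool and annotation release are not given in the sources used here. The deposited FPKM values are the authors' and were used only to compare genes and in alternatives.

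Counts were tested with edgeR 4.0.16 (R 4.3.3, TMM, filterByExpr, quasi-likelihood, Benjamini-Hochberg over 17142 genes). Calls needed an adjusted p under 0.05, and 2-fold calls also a 2-fold change. Depth was 25507595 to 29444841 counts per library, and floors cover counting error only. Positions are from GENCODE 44 (GRCh38). The regional median was taken over genes within 10 Mb with a mean of at least 10 counts. Alternatives used DESeq2 1.42.0, limma 3.58.1 and other filters, scalings and library sets. Fits were also run on simulated counts, drawn with the same spread for every gene and with no library apart. They therefore do not cover a library such as HG-OE replicate 3.

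The members and gene lists were chosen with earlier results of these data known. All 10 members were named, with, from the other lists, the 12 largest changes among called genes with a mean of at least 50 counts and every ligand and receptor. The remaining genes named from the lists were chosen after their values were seen.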

Additional observations from a re-analysis of the deposited data

How the results depend on the processing

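Each result was recomputed with DESeq2 size factors, without the filter on low counts, with 10 or more counts required of each library, a replicate block, each library left out in turn, DESeq2's Wald test, limma on log2(FPKM + 1) with and without a filter or log2(FPKM + 0.1), and, for fold changes and 2-fold calls, the regional median removed. Each of the 8 tested members kept its direction under every alternative and its call in every fit. Their log2 fold changes ranged from 0.41 to 0.81 for INSR, 0.24 to 0.41 for IGF1R, -0.37 to -0.22 for IRS1, -0.73 to -0.65 for IRS2, -0.96 to -0.81 for IGFBP3, 1.49 to 1.95 for IGFBP4, -1.61 to -1.34 for IGFBP5 and 0.44 to 0.51 for IGFBP6. The number of members called was 8 throughout, and 9 with no low-count filter, which adds IGFBP2. At 2-fold it was 2, and 3 with no low-count filter. On log2(FPKM + 1) with no filter, IGFBP1 and IGFBP2 were at 0.07 and 0.11 (adjusted p = 0.556 and 0.508). Called pathway genes numbered 30 to 36, with 57 to 65 tested, and called FOXO-responsive genes 4 to 7, with 10 to 15 tested. The share of all genes called is not given for these alternatives, so the counts do not show a stable share. On log2(FPKM + 1), 1 FOXO-responsive gene was called higher and 4 lower, and with no filter 0 higher and 4 lower. In the other fits 2 or 3 were higher and 4 or 5 lower.

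No pairing of libraries by replicate number was visible. The deviations of same-numbered libraries correlated at -0.0273, 0.0301 and -0.000993, and not every library correlated best with its own number. With 3 libraries per group, these values cannot tell whether the cultures were handled in pairs. With the replicate block, 8 members were called, 2 of them at 2-fold, with 36 of 59 pathway and 6 of 10 FOXO-responsive genes. HNRNPF stayed at 0.48 with the block, and was at 0.36 relative to the median of 0.12 of genes within 10 Mb. Depth limits IGFBP1 and IGFBP2, which had 4 and 14 counts in all outside HG-OE replicate 3.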
